A study of Mus musculus with 30 samples.

Results

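Alternative 5′ splice sites were measured in mouse CGR8 embryonic stem cells and in embryoid bodies and neurons made from them. At such a site the same exon can end at either of a pair of donor sites that are joined to the same next exon. The inner donor gives the shorter exon and the outer donor the longer one. Use of the outer donor is given as PSI, the percent of the event's junction reads that join at the outer donor. The set described here holds the donor pairs that had at least 20 junction reads in all 30 libraries and a mean PSI of 10 to 90 over the 6 libraries of the parental line. It holds 313 pairs in 304 genes, of 661327 splicing events of all kinds in the deposited table, and 9 genes hold 2 pairs. Of 13708 donor pairs with at least 20 reads in all libraries most lay outside the PSI range, with 7828 under 10 and 5567 above 90. Because PSI in the parental line chose the pairs, its level there is a description. The pairs just inside the lower limit were in Vars2 (10.1), Prpf38b (10.2) and Zfp638 (10.3), and those just outside it in Klhl13 (9.998), Vps41 (9.93) and Dot1l (9.92). At the upper limit Ldlrad3 (89.992), Tra2a (89.93) and Gjc1 (89.8) lay inside, and Tubgcp6 (90.03), Upf1 (90.1) and Wdr4 (90.2) outside.

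A 5′ splice site is the start of an intron. It is first recognised by base pairing with the U1 small nuclear RNA, with help from U1 proteins and partners such as LUC7-like proteins, and is then handed over to U6 before the intron is cut. Introns nearly always start with GT, and a small minority start with GC. The consensus around the cut is CAG at the exon end followed by GTAAGT in the intron. Where donors lie close together, SR and hnRNP proteins are known to shift the choice between them. A shift between donors adds or removes exon sequence, and where the added length is not a multiple of 3 it changes the reading frame.

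The samples were the parental wild-type line (WTprtl) and 4 lines edited with CRISPR-Cas9, each as embryonic stem cells (ESC), embryoid bodies given retinoic acid (EB8) and glutamatergic neurons at 7 days in vitro (DIV7). Puf60_mEx5_HOM had exon 5 of the splicing factor gene Puf60 deleted on both alleles, Puf60_pEx5_HOM and Puf60_pEx5_HET had exon 5 always included from both alleles or from one, and Rbm38KO carried a deletion in the RNA-binding protein gene Rbm38. Each of the 15 groups had 2 libraries, A and B, of polyadenylated RNA. The edited lines were clonal per the labels, the series text speaks of independent clones, and the labels do not tie a library to a clone, so p-values measure the spread between these libraries, which may be technical. Depth was 28375996 to 38571969 spliced reads at annotated introns in the ESC libraries, 26152711 to 30675968 at EB8 and 23204150 to 28655479 at DIV7.

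The labels were checked on the edited genes. PSI of exon 5 of Puf60, 51 nt long, was 20.7 to 44 in the 6 WTprtl libraries, 7.5 to 13 in Puf60_mEx5_HOM, 93.2 to 99 in Puf60_pEx5_HOM, 49.2 to 64.9 in Puf60_pEx5_HET and 22.9 to 48.4 in Rbm38KO, so the line labelled as lacking the exon still had reads that included it. In the authors' deposited table Rbm38 was 8.2 to 79.47 RPKM over the 3 WTprtl groups and 2.67 to 5.27 over those of Rbm38KO. From ESC to EB8 to DIV7 the summed RPKM of 8 pluripotency markers was 7408.5, 144 and 89.3 in WTprtl, that of 8 neuron markers 228.8, 1050.3 and 2937.2, and that of 6 astrocyte markers 24.2, 30.4 and 413.5. Astrocyte markers were thus also highest at DIV7. In RNA from mixed cells, fewer cells of a type and less of that RNA per cell cannot be told apart, and the part of cell composition in the PSI values below was not tested.

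Sequences are shown for the pairs on which the results turn. Each is given 5′ to 3′ on the strand of the gene as the last 9 exon bases before the inner donor in lower case, followed in capitals by the bases that only the longer exon keeps, so that the first capitals are the first intron bases of the inner donor. All were read from GENCODE M21 transcripts (GRCm38, the build also called mm10). The first set holds pairs whose PSI moved one way through both steps of differentiation in the parental line: Zmynd8 (chr2:165807519-165807674, minus strand), Mtch1 (chr17:29336167-29336217, minus), Sec31a (chr5:100373380-100373424, minus), Chd3 (chr11:69346572-69346617, minus), Luc7l3 (chr11:94293085-94293137, minus) and Pisd (chr5:32739137-32739183, minus).
Zmynd8: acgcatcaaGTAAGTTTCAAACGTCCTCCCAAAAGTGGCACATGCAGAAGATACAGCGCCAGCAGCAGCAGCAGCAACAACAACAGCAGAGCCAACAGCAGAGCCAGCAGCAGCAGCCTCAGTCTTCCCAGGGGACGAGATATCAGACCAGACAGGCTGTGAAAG
Mtch1: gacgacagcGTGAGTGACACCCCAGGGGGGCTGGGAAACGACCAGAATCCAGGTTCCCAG
Sec31a: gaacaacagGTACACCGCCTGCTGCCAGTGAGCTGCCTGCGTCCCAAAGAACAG
Chd3: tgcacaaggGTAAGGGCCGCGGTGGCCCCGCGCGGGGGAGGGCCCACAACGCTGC
Luc7l3: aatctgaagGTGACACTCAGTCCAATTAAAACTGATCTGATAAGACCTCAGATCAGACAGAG
Pisd: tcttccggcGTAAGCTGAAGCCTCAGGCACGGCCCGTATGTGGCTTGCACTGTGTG
The second set holds pairs with large or well-covered differences at 1 step: Bend4 (chr5:67400061-67400131, minus), Tln2 (chr9:67227063-67227107, minus), Cdc42 (chr4:137328713-137328740, minus) and Crk (chr11:75692563-75692732, plus).
Bend4: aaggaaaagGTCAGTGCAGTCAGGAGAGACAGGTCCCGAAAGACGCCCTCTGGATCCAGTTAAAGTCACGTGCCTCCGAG
Tln2: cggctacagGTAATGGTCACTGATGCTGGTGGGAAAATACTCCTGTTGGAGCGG
Cdc42: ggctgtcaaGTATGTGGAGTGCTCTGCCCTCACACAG
Crk: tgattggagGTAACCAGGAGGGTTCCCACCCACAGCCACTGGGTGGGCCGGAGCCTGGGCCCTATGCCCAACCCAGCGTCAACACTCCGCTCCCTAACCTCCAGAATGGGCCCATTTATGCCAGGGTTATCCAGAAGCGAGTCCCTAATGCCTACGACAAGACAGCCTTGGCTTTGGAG
The third set shows donors a few bases apart: Gatad2a (chr8:69916560-69916568, minus) and Pard3 (chr8:127398751-127398759, plus) with the same 9 added bases, Kdm5c (chrX:152271930-152271938, plus), and Fam193a (chr5:34436595-34436598, plus), Emc1 (chr4:139363776-139363779, plus) and Safb2 (chr17:56578637-56578640, minus) with donors 4 nt apart.
Gatad2a: ggggcccagGTGAGTCAG
Pard3: ggataatggGTGAGTCAG
Kdm5c: agggctcagGTAAGAGAG
Fam193a: tgtggatgaGCAG
Emc1: ggcaagaagGCAG
Safb2: aagcatgctGTAG
All of these stretches lie in regions that the annotation puts in coding sequence.

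The donors of a pair lay 1 to 492 nt apart, with a median of 26 nt. Distances of up to 12 nt made up 123 of the 313 pairs, and 4 nt was the commonest distance (30 pairs), followed by 6 nt (23), 9 nt (17), 12 nt (15) and 3 nt (11). The distance was a multiple of 3 in 158 pairs (50.5%). In the 228 pairs annotated as coding the share was 57.0% (130 pairs), and in the 76 pairs in 5′ UTRs it was 34.2%. Both donors were used by an annotated transcript in 234 pairs, and in each of the others one of them was. In 177 pairs both donors belonged to a protein-coding transcript, in 64 only the inner and in 66 only the outer. The reading frame through the added bases could be read in 133 coding pairs. Of these, 76 added a multiple of 3 with no stop codon, 12 a multiple of 3 with a stop codon, 15 another length with a stop codon in the added bases and 30 another length with none there. Sec31a, Tln2, Mtch1, Zmynd8 and Kdm5c were among those that added whole codons, while the 53 added bases of Luc7l3 held a stop codon in its frame.

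**Figure D1:**
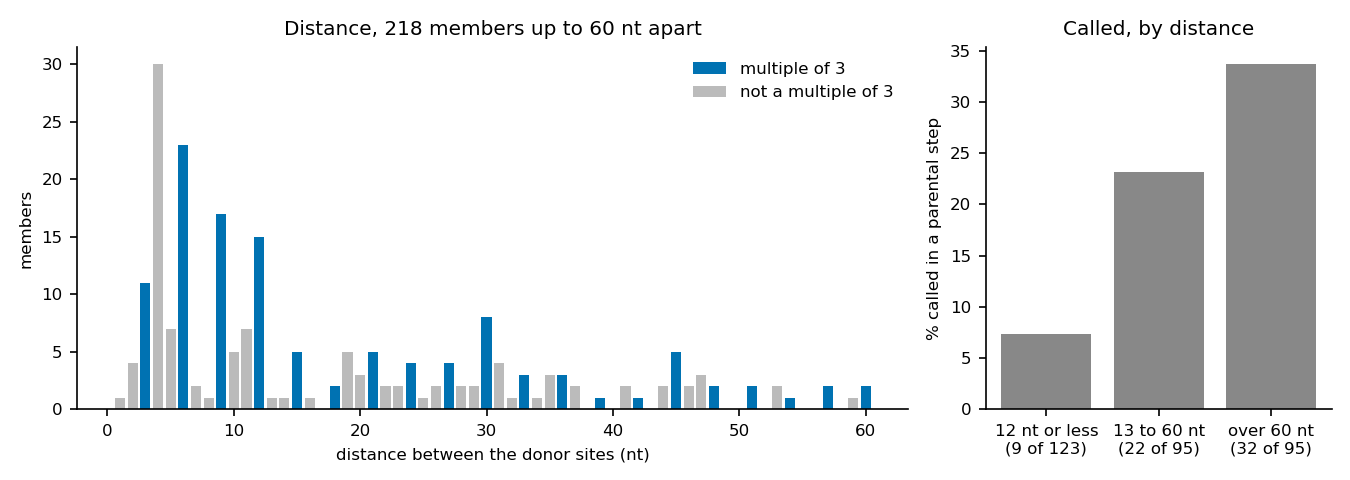
Left, number of pairs (y axis) at each distance between the donor sites in nt (x axis), for distances up to 60 nt, with multiples of 3 in blue and other distances in grey; the peak at 4 nt holds 30 pairs. Right, percent of pairs called in either step of differentiation in the parental line (y axis) in 3 classes of distance (x axis, with the number called of the number in the class): 7.3% up to 12 nt, 23.2% from 13 to 60 nt and 33.7% over 60 nt.

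The added bases could be read in full in 281 pairs. They started with GT in 258 and with GC in 22. The 9 bases around the inner donor, read in 250 pairs, matched the consensus at a median of 6 positions (2 to 8). Both donors could be read in 86 pairs. The inner donor matched at more positions in 32 of them and the outer in 32, with 22 ties, and the median parental PSI was 53.6 where the inner matched better, 55.4 where the outer did and 32.4 in the ties. Parental PSI chose the pairs, so these medians describe the chosen pairs only and do not test whether better matches go with use. In Luc7l3 the inner donor matched at 5 positions and the outer at 8, and in Zmynd8 the inner matched at 8.

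Pairs with short distances shared sequence beyond the rule. Of the 20 pairs 4 nt apart that could be read, 11 added GCAG and 5 added GTAG. Of the 20 read pairs 6 nt apart, 6 added GTAAAG and 4 GTACAG, and 6 of the 9 read pairs 3 nt apart added GTG. In all but 3 of the 22 pairs with a GC inner donor the parental PSI was 50 or more (19 pairs, median 65.3). In the 258 pairs with a GT inner donor it was 50 or more in 134 (median 52.3). Parental PSI chose the pairs, so this too is a description of the chosen pairs. The GCAG pairs were also less repeatable than pairs with other GC or with GT inner donors, whose medians on the same measure were 4.99 and 5.02. Their PSI differed between libraries A and B of a group by a median of 12.03 points (the mean over the 15 groups per pair), against 5.03 for all 313 pairs, with 34 against 56 reads in the shallowest library. Of the 13 pairs in which at least 1 group had libraries 30 or more points apart, 5 were among these 11 GCAG pairs. Groups with libraries that far apart also occurred outside GCAG, though in 0 of the 11 pairs with another GC inner donor, and the median spread was lower there. In the 9 pairs with a GT inner donor 4 nt apart the median was 6.29 points, with 25 reads in the shallowest library. Of those 9 pairs, 2 had such a group. The inner donor was annotated in 1 of the 11 and the outer in all 11.

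Fam193a and Emc1 showed the size of this spread. In Fam193a the 2 WTprtl libraries read 100 and 100 at ESC, 55.5 and 78.6 at EB8 and 62.8 and 65.35 at DIV7, while the Rbm38KO libraries read 39.3 and 100 at ESC and 64.1 and 100 at DIV7. In Emc1 the WTprtl libraries read 61.4 and 38.7, 82.0 and 59.8, and 63.7 and 61.2 at the 3 stages. Man2a1, whose donors lay 125 nt apart and which was covered by 20 reads in its shallowest library, had libraries 30 or more points apart in 6 groups and read 100 in 14 libraries. It had the largest difference between an edited line and WTprtl that the test did not call, 53.6 points in Rbm38KO at EB8, with libraries at 100 and 100 against 40 and 52.9 (limma adjusted p = 0.883). These 3 pairs are named because of their spread, after their values were seen.

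Most pairs were repeatable within the limits of their reads. Across the 15 groups the median difference between libraries A and B was 3.44 to 4.58 points. The shallowest library had a median of 56 reads per pair (20 to 1474). At 56 reads a PSI of 50 has a 95% Wilson interval of 37.3 to 62.7, and at 200 reads 43.1 to 56.9, which cover counting error only. The range of the group means over all 15 groups had a median of 17.8 points (3.7 to 71.2). It was under 10 points in 50 pairs and at least 40 points in 23. Among the 87 pairs with at least 100 reads in every library, 30 varied by less than 10 points.

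The steadiest of these well-covered pairs kept both donors in use at every stage. In Map7d1, a microtubule-associated protein, PSI was 69.6 to 72.9 in WTprtl over a distance of 9 nt. In Tfg, a protein of endoplasmic reticulum exit sites, it was 81.5 to 85.35 (12 nt). In Gatad2a, a subunit of the NuRD chromatin complex, it was 9.38 to 12.3 (9 nt), and in Tra2a, a splicing activator, 87.8 to 91.4 (6 nt). None of these 4 was called in any comparison with WTprtl or between stages. They were chosen for a small range of group means, too small for the difference in PSI that a call requires. The lack of calls follows from that choice and is no further evidence of steadiness. The Gatad2a pair had the same 9 added bases as the pair in Pard3, a cell polarity protein, where PSI in the WTprtl libraries was 21.3 and 32.1 at ESC, 23.3 and 24.5 at EB8 and 15.6 and 10.7 at DIV7. In Pard3 it fell from EB8 to DIV7 by 10.8 points (limma adjusted p = 0.0223).

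The first comparison asked which donor choices differed between WTprtl embryoid bodies and stem cells. A change was called where limma's p-value, adjusted by the method of Benjamini and Hochberg over the 17579 events in the fit, was under 0.05 and PSI differed by 10 points or more. Between EB8 and ESC 30 of the 313 pairs were called (9.58%), against 13.7% of all events tested. The outer donor was used more in 13 pairs, where 8.22% of all events were called higher, and less in 17, where 5.49% were called lower. The median absolute difference was 4.91 points over the pairs and 4.38 over all events. The call count rested in part on single libraries: it was 14 without EB8_WTprtl replicate B, 15 without ESC_WTprtl replicate A and 19 without ESC_WTprtl replicate B.

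Outer donors rose most in Adarb1, Cdc42, Vkorc1l1 and Zmynd8. In Adarb1, the RNA-editing enzyme ADAR2, PSI was 3.12 and 2.94 in the ESC libraries and 27.7 and 50 at EB8, so the groups were far apart but the EB8 libraries were not close to each other. The difference was 35.8 points (log2 ratio of outer to inner reads 3.30 ± 0.99 SE, adjusted p = 0.0163), and it lost the call under 4 of 10 other settings. In Cdc42, a small GTPase that directs the actin cytoskeleton and cell polarity, PSI was 69.8 and 70.5 at ESC, 98.7 and 98.9 at EB8 and 99.1 and 99.3 at DIV7. Its inner donor thus took about 30 of 100 junction reads in stem cells and about 1 afterwards. These are shares of very unequal totals. The WTprtl libraries held 46 and 47 junction reads of the pair at ESC, 517 and 533 at EB8 and 1567 and 1692 at DIV7. A lower share of the inner donor therefore need not mean fewer inner-donor reads. The difference in PSI between EB8 and ESC was 28.7 points (5.02 ± 0.56 SE, limma adjusted p = 1.49e-07). In the 8 ESC libraries of the edited lines Cdc42 read 61.65 to 81.1, and in the 16 later ones 96.9 to 99.6, so no later library overlapped a stem cell library. Vkorc1l1, a relative of the vitamin K epoxide reductase, read 32.3 and 43.3 at ESC and 62.7 and 65.8 at EB8 (26.4 points, adjusted p = 0.0019).

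Other pairs rose by smaller amounts. Rpl21, a ribosomal protein whose donors lay 174 nt apart in the 5′ UTR, read 38.9 and 33.8 at ESC and 52.03 and 62.1 at EB8 (20.7 points, adjusted p = 9.37e-04). GENCODE names 15 pseudogenes after Rpl21, so reads of its copies could enter this value. Nrde2, a nuclear RNA surveillance factor, rose by 19.7 points (63.6 and 55.6 to 78.2 and 80.4), Hax1, a mitochondrial survival protein, by 18.1 points (74.5 and 77.2 to 92.96 and 94.9), and Tmem198b, a membrane protein, by 17.1 points (82.1 and 74.3 to 94.97 and 95.6). Both EB8 libraries lay above both ESC libraries in each of these.

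Outer donors fell most in Speg, Trmt10b, Hmgn3 and Cebpzos. Speg, a kinase gene known from striated muscle, read 71.4 and 65.5 at ESC and 31.3 and 22.5 at EB8, a fall of 41.6 points (limma adjusted p = 1.63e-04), and was back at 65.8 and 66.7 at DIV7. Trmt10b, a tRNA methyltransferase, read 30.7 and 33.3 at ESC and 9.62 and 3.28 at EB8, and 18.9 and 24.4 at DIV7. In Hmgn3, a nucleosome-binding protein, the values were 59.5 and 46.8, then 30.4 and 27.6, then 25.1 and 22.6, so the lower level of EB8 was also that of DIV7. Cebpzos fell by 23.2 points (77.9 and 79.1 to 56.8 and 53.8) and Vcpkmt, a methyltransferase that acts on the ATPase VCP, by 23.1 points (80 and 75.4 to 65.8 and 43.4).

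The second comparison asked the same between WTprtl neurons and embryoid bodies. Between DIV7 and EB8 45 pairs were called (14.4%), against 17.8% of all events. The outer donor rose in 24 (11.4% of all events were called higher) and fell in 21 (6.41% lower). The count was 26 without EB8_WTprtl replicate A and 29 without DIV7_WTprtl replicate A. Among 2-site alternative 3′ splice sites chosen by the same limits, 34 of 563 (6.04%) were called at the first step and 55 (9.77%) at this one.

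The largest rise was in Bend4, which encodes a protein with a BEN domain. Its PSI was 34.5 and 34.1 at ESC, 37.7 and 40.4 at EB8 and 82.5 and 83.3 at DIV7, so the 4 stem cell and embryoid body libraries lay between 34.1 and 40.4 and both neuron libraries above 82. The difference from EB8 was 43.8 points (log2 ratio 2.86 ± 0.36 SE, adjusted p = 5.72e-07). The 71 added bases are not a multiple of 3. In Tln2, the integrin-binding protein talin 2, PSI was 2.29 and 1.87 at ESC, 4.94 and 1.33 at EB8 and 44.3 and 45.4 at DIV7 (41.7 points, adjusted p = 4.69e-05). The addition is 45 nt long and in frame, and in WTprtl its use stayed under 5 before the neuron stage. Sash1, a scaffold protein, had no outer-donor reads in any of the 10 ESC libraries. With 744 reads in all, a count of 0 allows a share of up to 0.403%, for counting error only. Its WTprtl libraries read 6.75 and 7.96 at EB8 and 44.8 and 39.3 at DIV7 (34.7 points, adjusted p = 8.99e-07).

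The outer donor also rose by over 30 points in Ccdc9, Baz2b, Txndc9 and Ssx2ip. Ccdc9 read 12.8 and 7.52 at EB8 and 40 and 46.5 at DIV7, and its 46 added bases held a stop codon in frame. Ssx2ip, a protein of cell junctions and centrosomes, read 45.7 and 54.4 at EB8 and 77.4 and 83.9 at DIV7 (30.6 points, adjusted p = 0.00144). Baz2b, a bromodomain protein, read 11.4 and 15.6 at EB8 and 46.8 and 43.9 at DIV7 through a 105-nt addition. Txndc9, a thioredoxin domain protein with donors 271 nt apart in its 5′ UTR, read 17.2 and 23.6 at ESC, 22.7 and 23.6 at EB8 and 56.6 and 52.5 at DIV7 (31.4 points, adjusted p = 8.52e-07). In all 4 genes both DIV7 libraries lay above the other 4 WTprtl libraries.

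Falls were led by Fkbp15, Pisd, Hax1 and Wdsub1. In Fkbp15, an FK506-binding protein family member with donors 30 nt apart and a GC inner donor, PSI was 94.4 and 100 at ESC, 94.02 and 89.4 at EB8 and 61.97 and 61.3 at DIV7 (a fall of 30.1 points, limma adjusted p = 4.14e-04). Wdsub1 fell by 24.2 points, Cdan1 by 18.9 points and Zfp2 by 18.3 points. Crk was the best covered of the named pairs that fell, with 644 to 1313 reads per library. The gene encodes a signalling adaptor with SH2 and SH3 domains, and is known to make a longer protein, CrkII, from the outer donor and a shorter one, CrkI, from the inner. Its libraries read 53.9 and 51.8 at ESC, 59.1 and 61.99 at EB8 and 43.1 and 43.2 at DIV7. The neuron libraries were thus the only parental ones in which the inner donor was used more, and the fall from EB8 was 17.4 points (log2 ratio -1.01 ± 0.16 SE, adjusted p = 2.28e-05).

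Several pairs with a stop codon in the added bases moved at this step, in both directions. In Pih1d1, a subunit of a chaperone complex, the outer donor rose from 55.7 and 55.9 to 75.02 and 78.1 (20.8 points, adjusted p = 3.46e-05). In Dph7, an enzyme of diphthamide synthesis, it rose from 26.1 and 15.65 to 45.7 and 33.96 (18.9 points, adjusted p = 0.00913), and in Hsf1, the heat shock transcription factor, from 6.25 and 10.9 to 25.4 and 13.8 (11.1 points, adjusted p = 0.0468). Both DIV7 libraries lay above both EB8 libraries in the 3 genes, by little in Hsf1. It fell in Tssc4, a factor of spliceosome assembly, from 47.8 and 51.7 to 35.3 and 35.03, and in Timm10b, a mitochondrial import protein, from 76.6 and 75.2 to 60.4 and 63.9. An in-frame addition of 138 nt rose in Skil, a corepressor of SMAD signalling, from 37.4 and 41.45 to 59.6 and 60.4 (20.6 points, adjusted p = 0.00305). Of these 6 pairs, which were picked for their stop codons or their size after their values were seen, 5 were called in all 4 edited lines at the same step and Timm10b in 2.

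At the first step the smaller falls included 15 nt of Cnot1, the scaffold of the deadenylase complex, from 68.7 and 66.7 to 54.3 and 57.1 (12 points, adjusted p = 0.00475), and 6 nt of Atxn2, an RNA-binding protein, from 59.35 and 60.1 to 47.2 and 47.2. These were also named after their values were seen. The EB8 libraries of each lay apart from its ESC libraries in WTprtl. Cnot1 was called at this step in none of the edited lines, where it differed by -5 to -8.2 points.

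Called pairs were counted in gene lists taken up with earlier results of these data known, so these counts are descriptions. Of the 23 genes in a list of U1 proteins and their partners, 2 held a pair, among them Luc7l3. Luc7l3, a LUC7-like partner of U1, read 89.5 and 90.99 at ESC, 71.2 and 68.3 at EB8 and 53.6 and 59.6 at DIV7, a fall of 20.5 points at the first step (log2 ratio -1.97 ± 0.27 SE, adjusted p = 2.69e-06) and of 13.1 at the next (adjusted p = 0.0125). The stop codon lies in the bases that the outer donor keeps, and the outer donor took 51.99 to 93.5 percent of the reads over all 30 libraries, the majority in each. SR protein genes held 3 pairs, 2 in Tra2a and 1 in Tra2b. In Tra2b, a splicing activator, PSI was 14.8 and 12.1 at ESC, 16.7 and 18.3 at EB8 and 4.32 and 2.05 at DIV7, a fall of 14.3 points (adjusted p = 2.89e-05) at donors 121 nt apart, both of them annotated only in transcripts outside the protein-coding class. GENCODE names 1 pseudogene after Tra2b.

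A list of chromatin and transcription genes held 19 pairs in 17 genes. Of these, 8 pairs were called at a step, beside 63 of all 313 pairs (20.1%). Beside Zmynd8, Zmynd11, Chd3 and Baz2b, these included Kdm5c and Smarca1. Kdm5c, a histone H3K4 demethylase with donors 9 nt apart, read 29.6 and 23.1, 17.8 and 21.2, and 32.3 and 28.9. Smarca1, an ISWI remodeller with donors 15 nt apart, read 13.5 and 16.05, 24.95 and 22.8, and 36.1 and 38.1. A list of neuronal and cytoskeletal genes held 3 pairs (Arhgef12, Dlg1 and Sept6) and a list of translation genes 1 (Eif4enif1), none of them called. The lists are not complete. They leave out Cdc42, Tln2, Rpl21 and Hmgn3, whose pairs were called, so their counts do not cover all genes of these functions. Lists of tri-snRNP, hnRNP and U2-side factors and of neuronal splicing regulators held no pair. In the authors' deposited table RPKM in WTprtl was higher at EB8 than at ESC in 6 of the 23 U1-list genes. It was higher at DIV7 than at EB8 in 3 of them. Snrnp70, the U1 70K protein, was at 256.24, 195.97 and 133.24. The lower RNA was not particular to the U1 list. The same counts were 0 and 0 for 21 U6 and tri-snRNP genes and 3 and 1 for 15 SR genes. They were 7 and 1 for 24 hnRNP genes, 4 and 3 for 22 U2-side genes and 23 and 18 for 28 neuronal splicing regulators.

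In all, 63 pairs were called at one step or the other and 12 at both. Both steps use the EB8 libraries of WTprtl, so these counts are descriptions, and the values of the 3 stages are given side by side. Of the 12, 8 moved the same way at both steps. The shares of all events called at either step, at both or the same way at both were not counted. These counts are therefore not shown to be particular to donor pairs. Zmynd8, a reader of histone marks, covered the widest range: 32.1 and 25.6 at ESC, 48.3 and 56.3 at EB8 and 83.96 and 87.3 at DIV7, so that its 156-nt addition went from a minority to most of the reads (23.4 points, adjusted p = 8.84e-05, then 33.4 points, adjusted p = 3.47e-08). Mtch1, a mitochondrial outer membrane protein with 512 or more reads in each library, rose from 38.7 and 46.8 to 53.3 and 57.8 and then 73.8 and 75.8. Zmynd11, a reader of histone H3.3 marks, rose from 7.75 and 12.2 to 17.2 and 26.1 and then 30.8 and 37.7, with calls that were lost under 5 and 3 of 10 other settings.

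The other 5 fell at both steps. Pisd, the enzyme that makes phosphatidylethanolamine in mitochondria, went from 97.6 and 97.3 to 75.2 and 77.5 and then 58.2 and 40.4, with adjusted p = 2.71e-07 and 1.17e-05. GENCODE names 2 pseudogenes after Pisd, so its reads may include those of copies. Sec31a, a coat protein of vesicles that leave the endoplasmic reticulum, went from 75.6 and 78.96 to 56.9 and 58.2 and then 38.9 and 44.9. Chd3, a remodeller of the NuRD complex whose outer donor is not annotated, went from 43.5 and 49.3 to 29.6 and 24.01 and then 16.6 and 13.9. Its deposited RPKM rose over the same groups, from 10.66 to 66.36 and 146.81 in the authors' deposited table. Cdan1, codanin-1, went from 92.4 and 97.3 to 83.05 and 73.02 and then 54.9 and 63.4. Within each of these 8 pairs the 3 stages did not overlap in WTprtl. The other 4 pairs called at both steps (Speg, Hax1, Trmt10b and Cebpzos) turned back at the second.

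**Figure D2:**
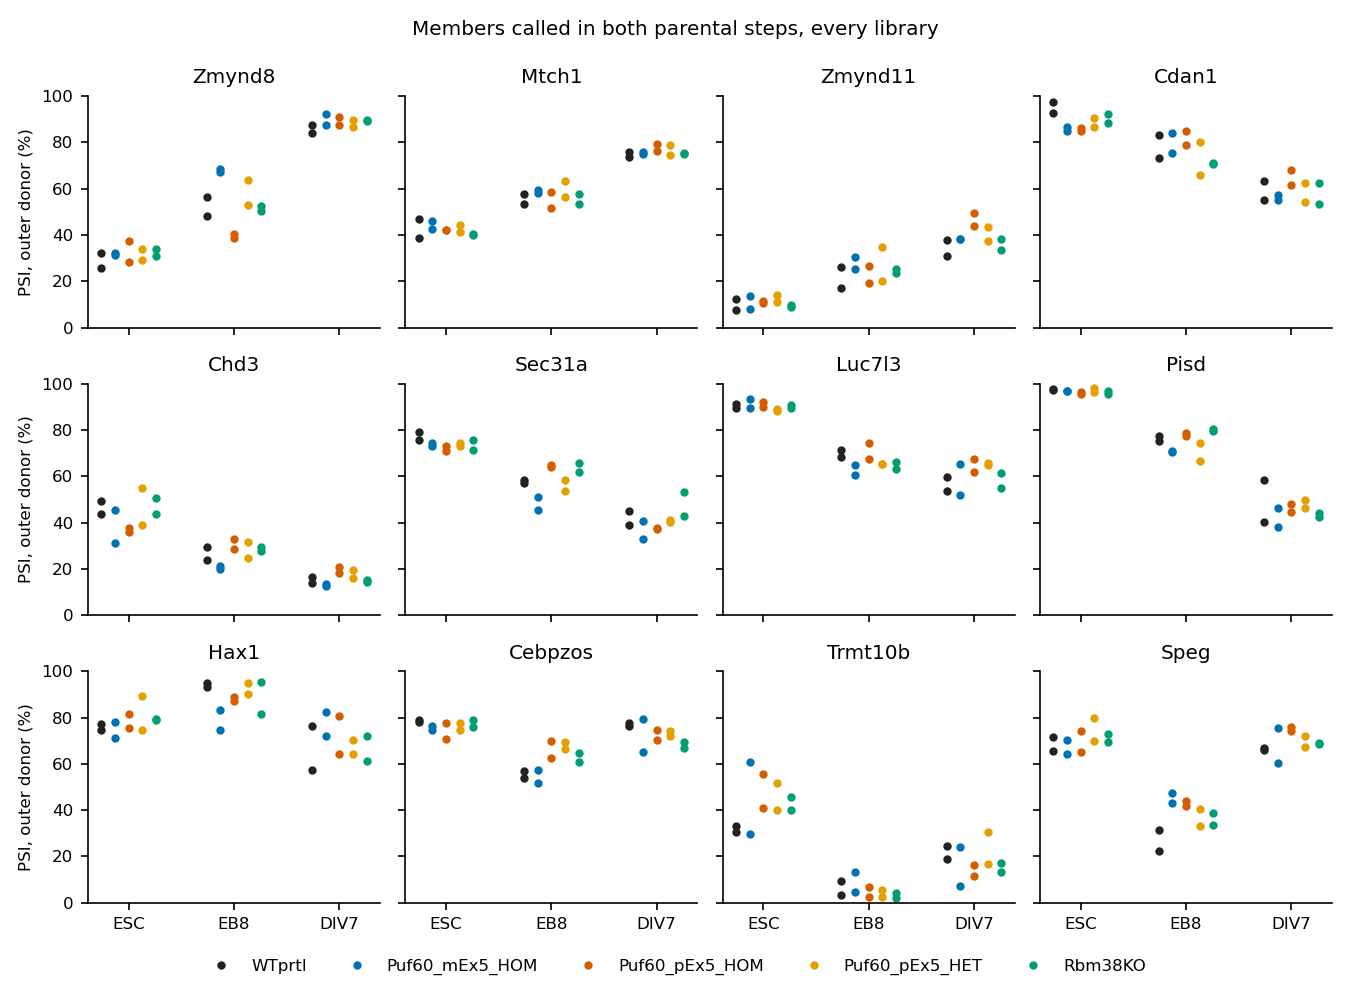
PSI of the outer donor in percent (y axis) in every library at the 3 stages (x axis) for the 12 pairs called at both steps in the parental line; each point is a library and colours mark the 5 lines. The top row and the second row hold the 8 pairs that moved one way, such as Zmynd8 from 25.6 at ESC to 87.3 at DIV7, and the bottom row the 4 that turned back, such as Speg.

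The distance between donors went with the share called. At up to 12 nt 9 of 123 pairs were called at a step (7.3%), from 13 to 60 nt 22 of 95 (23.2%) and over 60 nt 32 of 95 (33.7%). The shallowest library had a median of 64, 51 and 46 reads in these classes. None of the 30 pairs 4 nt apart was called at a step, and their median was 42.5 reads. The part of coverage was not tested. The range over the 15 groups had a median of 14.5, 18.7 and 20.7 points in the 3 classes. Pairs whose distance was a multiple of 3 and pairs of other distances were called at nearly the same rate, 20.3% of 158 and 20.0% of 155. Of the coding pairs 23.2% were called and of those in 5′ UTRs 11.8%. These classes were compared as a description and no test was run on them.

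Steps of the edited lines share no library with those of WTprtl, and the pairs called in WTprtl moved the same way there. Of the 30 pairs called between EB8 and ESC, 27 had the same sign of difference in all 4 edited lines, 11 differed by at least 10 points in all 4 and 8 were called in all 4. These 8 were Cdc42, Vkorc1l1, Rpl21, Mtch1, Speg, Trmt10b, Pisd and Luc7l3. Of the 45 called between DIV7 and EB8, 43 had the same sign in all 4, 23 differed by at least 10 points in all 4 and 18 were called in all 4. In the edited lines 11.5% to 18.3% of all events were called at the first step and 14.3% to 20% at the second. Those are shares of all events tested. The agreement of lines was not counted for the events of all kinds called in WTprtl. The counts above are therefore not shown to be particular to donor pairs. For Luc7l3 the first step was a fall of 20.1 to 28.8 points in the edited lines, while the differences at the second were -0.11 to -6.6 points and were called in none of them. Exceptions at the first step were Mto1, Brat1 and Cdk2ap2, and at the second Pigx and Armcx1, each with the opposite sign in at least 1 line. The contrasts within the edited lines were added after the parental steps had been seen. No pair passed the test of a difference in step between an edited line and WTprtl: limma called 0 of 313 in each of the 8 such tests, against 0.427% of all events for the second step of Puf60_pEx5_HOM, 0.0171% for its first, 0.0398% for the second of Puf60_mEx5_HOM and 0% for the others, and 10 to 25 pairs had an unadjusted p under 0.05.

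**Figure D3:**
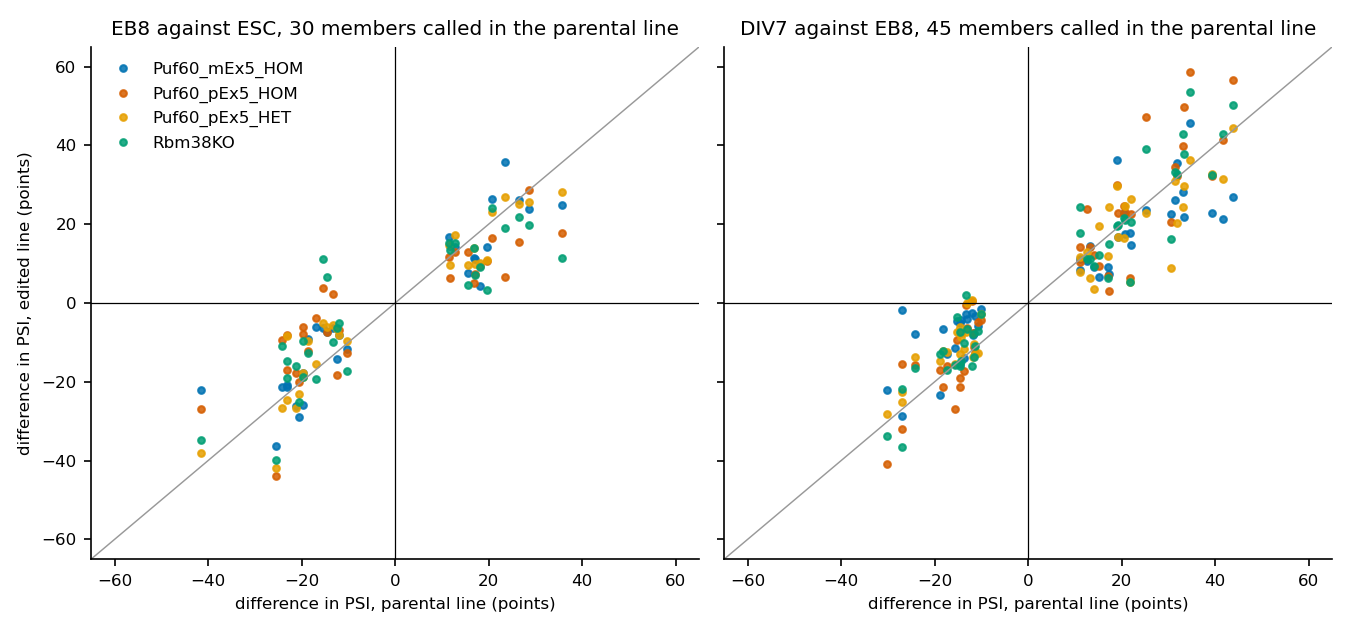
Difference in PSI in points at a step of differentiation in each edited line (y axis, colours) against that in the parental line (x axis), for the 30 pairs called between EB8 and ESC (left) and the 45 called between DIV7 and EB8 (right); the diagonal marks equal differences. Points lie in the quadrants of equal sign for 27 of 30 and 43 of 45 pairs in all 4 lines.

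**Figure D4:**
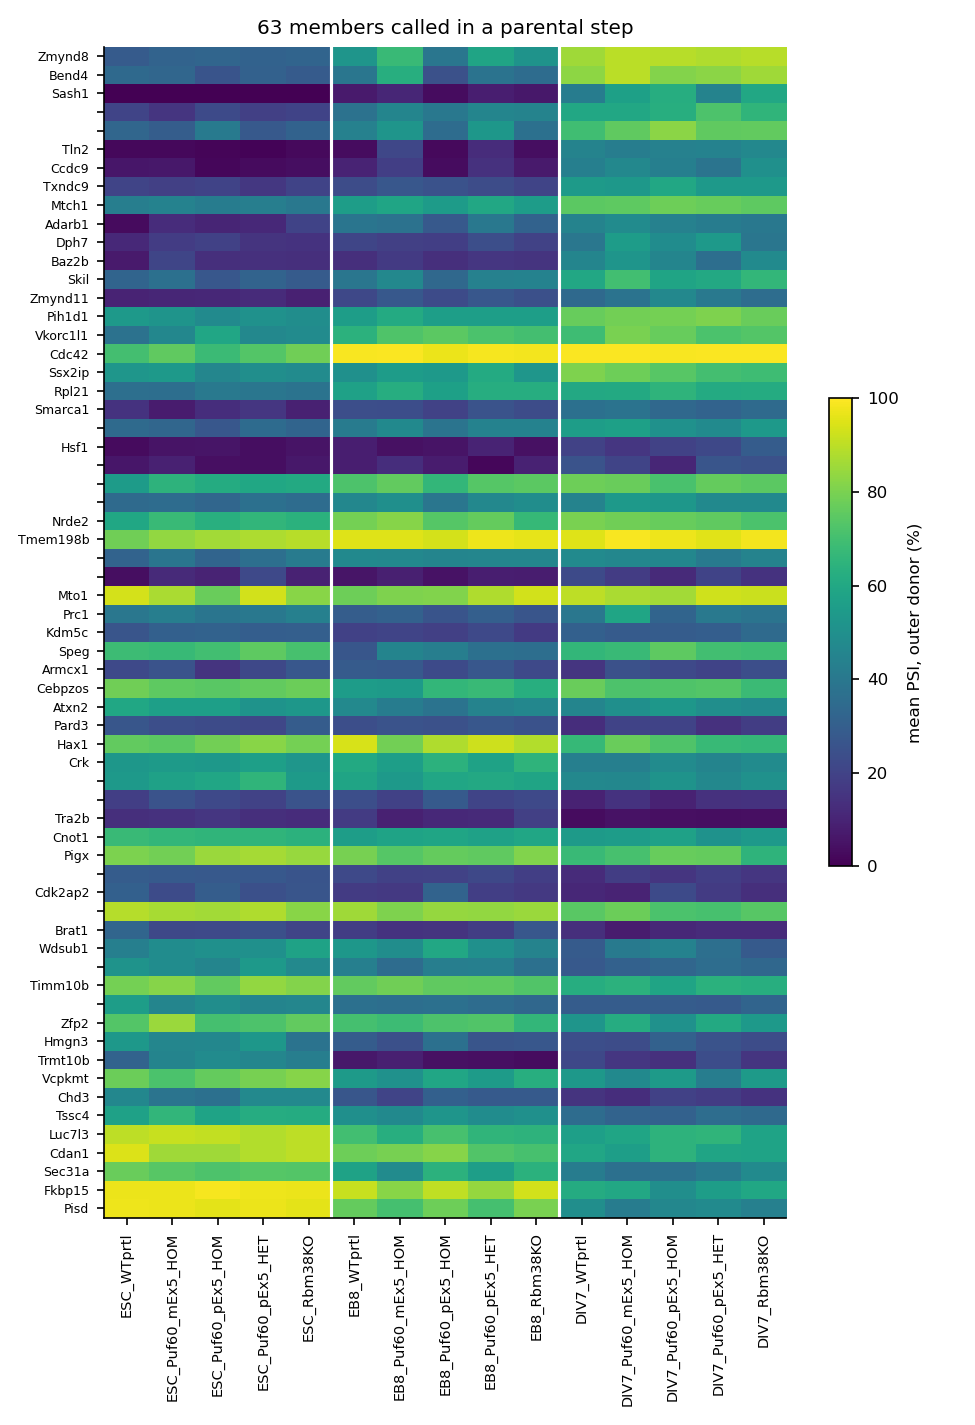
Mean PSI of the outer donor in percent (colour) of the 63 pairs called in either step of the parental line (rows, labelled where the host gene is named in the text) in the 15 groups (columns, by stage and then line), sorted by the difference between DIV7 and ESC. White lines separate the stages; a reader should see colours that change between stages in the same rows in the 5 lines, from Zmynd8 at one end to Pisd at the other.

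Edited lines were next compared with WTprtl at each stage. All 4 lines share the same WTprtl libraries in these comparisons. In Puf60_mEx5_HOM 2 pairs were called at EB8 (1% of all events were), 0 at ESC (0.0341%), 0 at DIV7 (0.131%) and 0 over the mean of 3 stages (0.216%), where 12, 13 and 23 pairs had an unadjusted p under 0.05. In Puf60_pEx5_HOM 1 pair was called at ESC (1.83%), 2 at EB8 (3.23%), 0 at DIV7 (1.81%, with 33 pairs at an unadjusted p under 0.05) and 1 over the mean of stages (3.18%). In that last comparison 8 pairs passed the adjusted p alone, and 19 of the 563 alternative 3′ splice sites were called. In Puf60_pEx5_HET and Rbm38KO limma called 0 pairs in all 4 comparisons each, against 0.0228% to 0.0512% and 0% to 0.00569% of all events, and 10 to 15 pairs had an unadjusted p under 0.05. The share of these donor pairs called in an edited line was thus below that of all events wherever any was called.

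Zmynd8 and Bend4 rose in Puf60_mEx5_HOM embryoid bodies. Zmynd8 read 67.2 and 68.5 there against 48.3 and 56.3 in WTprtl (15.6 points, log2 ratio 0.94 ± 0.22 SE, adjusted p = 0.0303), and 38.6 and 40.3 in Puf60_pEx5_HOM (a fall of 12.8 points, -0.75 ± 0.22 SE, adjusted p = 0.0475). Bend4 read 61.4 and 63.9 against 37.7 and 40.4 (23.6 points, adjusted p = 0.0303), and 26.8 and 23 in Puf60_pEx5_HOM, where the difference from WTprtl did not pass the test. In both pairs the WTprtl libraries lay between those of the homozygous lines. Neither pair was called at ESC or DIV7, where Zmynd8 read 25.6 to 37.4 and 83.96 to 91.98 over all lines. These calls were not robust: that of Bend4 was lost under 7 of 10 other settings, and those of Zmynd8 under 6 and 7 of 10. The authors' deposited log2 fold changes of Zmynd8 RNA at EB8 were -0.02 and 0.25 in the 2 lines (FDR 1.0 and 0.689).

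Vkorc1l1 and Cdk2ap2 rose in Puf60_pEx5_HOM. Vkorc1l1 read 61.8 and 56.96 at ESC against 32.3 and 43.3 in WTprtl (21.6 points, adjusted p = 0.0181). It read 76.8 and 72.7 against 62.7 and 65.8 at EB8 and 78.5 and 74.97 against 69.7 and 68.3 at DIV7, so both libraries were higher at each stage. Over the mean of stages the difference was 13.3 points (log2 ratio 0.86 ± 0.19 SE, adjusted p = 0.00324), and this call held under every setting tried. The pair was not high in this line alone. At ESC both libraries of Puf60_mEx5_HOM (46.3 and 46.03) and of Rbm38KO (44.8 and 51.9) also lay above WTprtl, and those of Puf60_pEx5_HET (40.4 and 52.6) overlapped it. At EB8 all 6 libraries of the other edited lines, at 68.3 to 73.2, lay above WTprtl, and at DIV7 Puf60_mEx5_HOM read 82.01 and 78.1. None of these differences from WTprtl in the other lines passed the test. Cdk2ap2, a gene of the CDK2-associated protein family with donors 226 nt apart and a stop codon in frame, read 29.8 and 33.7 at EB8 against 13.8 and 20.99 (14.3 points, adjusted p = 0.0182). At ESC its values were 28.98 and 29.98 against 36.5 and 24.9, so the groups overlapped there.

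The homozygous Puf60 lines were then compared with each other, a contrast added after the calls above had been seen. At EB8 10 of the 313 pairs were called (3.19%, against 8.28% of all events), 5 higher and 5 lower in Puf60_mEx5_HOM. At ESC 1 was called, against 2.67%, and at DIV7 4, against 3.65%. At EB8 Bend4 differed by 37.7 points (adjusted p = 3.05e-05), Zmynd8 by 28.4 points (4.8e-06), Tln2 by 18.6 points, Ccdc9 by 15.1 points and Eci2, an enzyme of fatty acid oxidation, by 14.01 points. In Tln2 the Puf60_mEx5_HOM libraries read 22.7 and 19.5, while those of Puf60_pEx5_HOM read 0 of 47 reads, which allows a share of up to 6.38%, and 4.94. The pairs lower in Puf60_mEx5_HOM were Moap1, a modulator of apoptosis (24.04 and 22.2 against 45.8 and 43.5), Sec31a (45.2 and 50.99 against 64.8 and 63.9), Cdk2ap2 (18.5 and 14.7 against 29.8 and 33.7), Hgh1 (73.8 and 75.6 against 89.99 and 84.3) and Chd3 (21.4 and 20 against 28.7 and 32.7). The count was 5 without EB8_Puf60_mEx5_HOM replicate B and 6 without its replicate A.

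**Figure D5:**
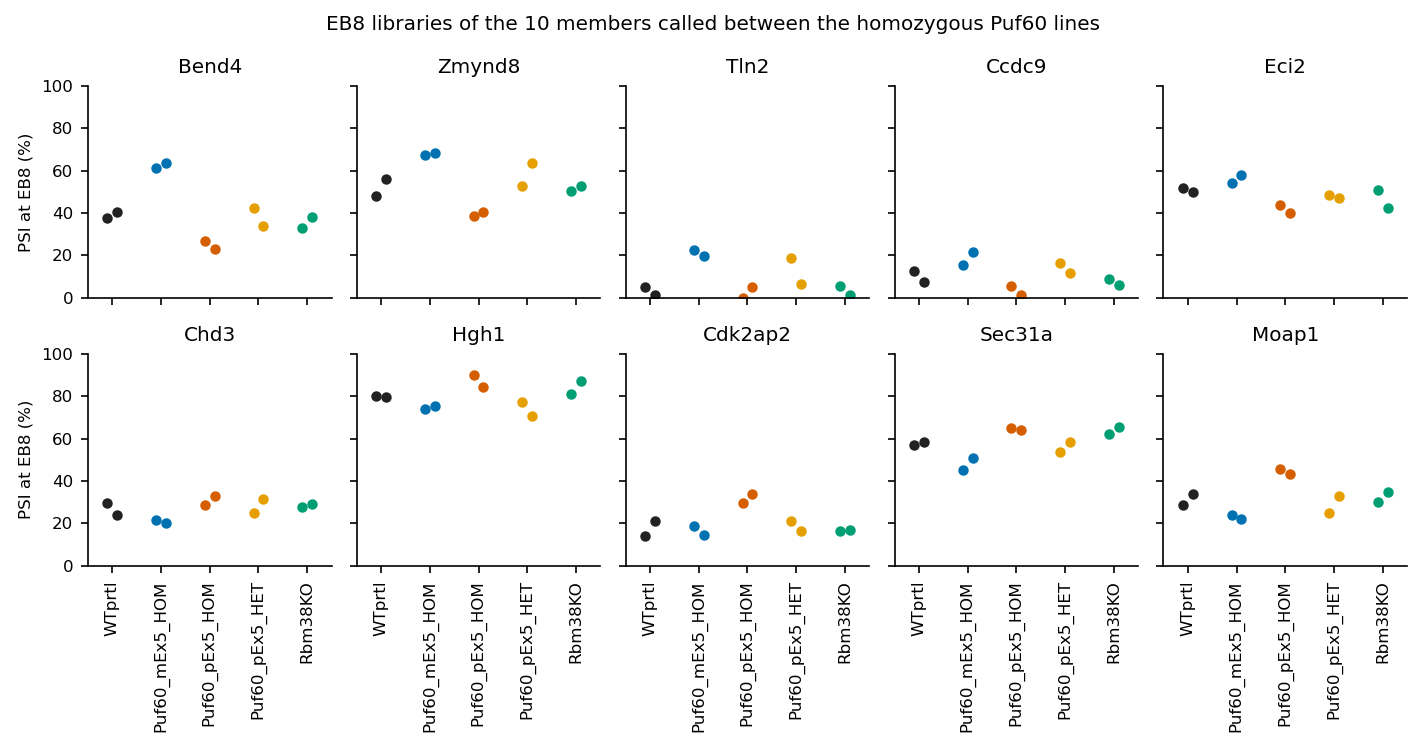
PSI of the outer donor in percent (y axis) in the EB8 libraries of the 5 lines (x axis) for the 10 pairs called between Puf60_mEx5_HOM and Puf60_pEx5_HOM; each point is a library. The upper row holds pairs higher in Puf60_mEx5_HOM (Bend4 61.4 and 63.9 against 26.8 and 23) and the lower row pairs lower in it.

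These differences between embryoid bodies were set beside the steps of differentiation. All 10 pairs called at EB8 between the homozygous lines had the sign of the WTprtl difference between DIV7 and EB8, which was measured in other libraries and ranged from 1.93 points in Eci2 to 43.8 in Bend4. The same count was not made for the events of all kinds called between these lines. It is therefore not shown to be particular to donor pairs. In Eci2, Cdk2ap2, Moap1 and Hgh1 the WTprtl difference at that step was not called, so its sign is less certain there. The WTprtl libraries overlapped in Eci2 (52.1 and 50 at EB8, 52 and 53.9 at DIV7) and Cdk2ap2 (13.8 and 20.99, then 6.55 and 15.55). Of the 45 pairs called at that step in WTprtl, 40 (88.9%) had the same sign in the difference between Puf60_mEx5_HOM and Puf60_pEx5_HOM at EB8, with a median of 4.91 points along the step, against 77.8% of the 3127 events of all kinds called at the step. At ESC 18 of the 45 did, beside 48% of all events, and at DIV7 23, beside 55.7%. Of the 30 pairs called in WTprtl between EB8 and ESC, 24 (80%) had that step's sign in the same EB8 difference, with a median of 4.23 points, against 75.9% of the 2410 events called there. In the difference between these lines at ESC 15 of the 30 had it, beside 48.8% of all events. At DIV7 22 had it (73.3%, median 1.93 points), beside 54.1% of all events. Both steps share the EB8 libraries of WTprtl. The summed RPKM of 8 neuron markers at EB8 was 1528.1 in Puf60_mEx5_HOM, 1306.6 in Puf60_pEx5_HET, 1050.3 in WTprtl, 792.7 in Rbm38KO and 696.1 in Puf60_pEx5_HOM. Between Puf60_pEx5_HET and Rbm38KO at EB8, which also share no library with WTprtl, 31 of the 45 pairs (68.9%) had the sign of the step to neurons, with a median of 1.33 points, against 75.8% of all events with a median of 2.78. The part of the neuron share of the embryoid bodies in the EB8 calls of Zmynd8, Bend4 and the other pairs was not tested.

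Outside EB8 the homozygous lines differed in few pairs. At ESC, Ehbp1, a protein of endosomal traffic with donors 9 nt apart, read 29.8 and 34.65 in Puf60_mEx5_HOM and 59.96 and 62.75 in Puf60_pEx5_HOM, with WTprtl at 40.8 and 54.6 (a difference of -29.1 points, adjusted p = 0.0219). At DIV7, Prc1, a protein of the dividing cell's midzone, read 61.4 and 56.5 against 33.3 and 31.5, with WTprtl at 39.04 and 40.5 (26.5 points, adjusted p = 0.0089). Prps2, an enzyme of nucleotide synthesis, read 5.37 and 7.26 against 16.1 and 23.1, and Safb2, an RNA-binding protein, 8.47 and 17.1 against 30.5 and 40.2. Cdk2ap2 was the only pair called between these lines at both EB8 and DIV7 (10.5 and 9.42 against 25.5 and 19.5 at DIV7), and it was lower in Puf60_mEx5_HOM at both. The DIV7 calls were lost under 4 of 10 other settings in Prc1, 5 in Prps2, 6 in Cdk2ap2 and 7 in Safb2, and that of Ehbp1 at ESC under 6. With 1 library left out 0 to 3 pairs were called at DIV7, with 0 where DIV7_Puf60_mEx5_HOM replicate B was left out, and none at ESC. Summed RPKM of cell type markers also differed between these lines in the authors' deposited table. At ESC that of fibroblast and muscle markers was 207 in Puf60_mEx5_HOM and 20.3 in Puf60_pEx5_HOM, and that of neural progenitor markers 358.7 and 156.6. At DIV7 the sums were 289.8 and 39 for fibroblast and muscle markers, 53.2 and 285.7 for pluripotency markers and 352.7 and 198 for astrocyte markers. The part of these differences in the PSI values was not tested.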

How the data were processed

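RNA-seq of polyadenylated RNA from 30 libraries was used as deposited. The deposited percent values (PSI) per splicing event and library, and strings that hold the reads for and against each form, came in the layout of vast-tools output per the file headers; its version is not given in the sources used here. Salmon 0.14.1, edgeR and the build mm10 are listed, with no role, per the submitters' processing notes. The RPKM, log2 fold changes and p-values (with FDR) of genes are the authors' deposited values, 1 per group or comparison, and how libraries were combined is not given in the sources used here. A deposited table of group PSI and calls was not used.

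Reads for the outer and the inner donor were taken from the strings. limma 3.58.1 (R 4.3.3; trend and robust options) was fitted to the log2 ratio of outer to inner reads, 1 read added to each, weighted by reads with an over-dispersion of 0.0308, over all 30 libraries with 15 group means and 15 residual degrees of freedom. The fit held 17579 events of all kinds with at least 10 reads in all libraries and a mean PSI of 5 to 95. P-values were adjusted over all of them by Benjamini-Hochberg; 18 comparisons were planned, and the contrasts within and between edited lines were added after the data were seen. The test was run on data simulated around the fitted over-dispersion, for WTprtl DIV7 against EB8. It recovered 14% of events changed by 10 points, 50% at 20 points and 66% at 30 points, with 4 false calls among 17379 events. A difference that was not called may thus have been missed, most of all near 10 points. Only 50 events, all of middle PSI, were changed at each size, while 3127 were called in the data. The adjustment of p-values depends on such numbers, so recovery in the data may differ.

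The donor pairs, gene lists and comparisons were chosen with earlier results of these data known. Pairs are named by rule: the 8 called pairs that rose and the 8 that fell most at each step, those called in an edited line, those called the same way at both steps, up to 3 called pairs per list, the 5 steadiest with 100 reads in every library, those at the ends of the PSI range and those in U1 and SR genes; others are said to be named after their values were seen. Some pairs that the rule names are not reported here. Donors were matched to GENCODE M21 (GRCm38), and added bases were read from its transcripts, since no genome of that build was used here; intron bases beyond the outer donor could therefore be read only where another transcript covers them, and donors were scored by matches to the consensus in place of a log-odds matrix. Replicate letters did not pair the libraries: deviations of libraries with the same letter correlated at -0.0638 to 0.133 over events. Intervals are Wilson intervals at 95%, and a count of 0 is given the upper limit of 3 reads. Scripts used Python 3.11.15.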

Additional observations from a re-analysis of the deposited data

Results flagged for a closer look

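In 10 pairs the direct test of the difference between Puf60_mEx5_HOM and Puf60_pEx5_HOM passed at a stage and the WTprtl libraries lay between those of both lines. The contrast was added after the data were seen, and most of these calls were lost under some other settings, from 0 of 10 in Zmynd8, Bend4, Ccdc9 and Moap1 and 1 of 10 in Sec31a to 6 of 10 in Hgh1 and Ehbp1. At EB8 the difference (Puf60_mEx5_HOM minus Puf60_pEx5_HOM) was 37.73 points in Bend4, 28.38 in Zmynd8, 15.07 in Ccdc9, 14.01 in Eci2, -12.41 in Hgh1, -16.27 in Sec31a and -21.55 in Moap1. At ESC it was -29.14 points in Ehbp1. At DIV7 it was 26.52 points in Prc1 and -13.3 in Prps2. For 7 of the 10 the values stand beside neuron markers that also differed between these embryoid bodies, as given above, and their part was not tested.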

How the results depend on the processing

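Of 63 named calls, 25 held under every alternative run. The alternatives were equal weights, 0.5 read added, at least 20 reads, no filter on mean PSI, only the groups compared, the replicate letter as a block, and each library left out in turn. The block and the 20-read minimum ended none of the 63, equal weights and no PSI filter 13 each, and only the groups compared 12. The direction of no result was reversed.

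At the parental steps the number of pairs called was 31 (EB8) and 47 (DIV7) with the replicate block, and leaving out 1 library gave 14 to 29 and 26 to 37. For Puf60_mEx5_HOM at EB8 it was 0 with equal weights, 0 with no PSI filter, 0 with 0.5 read added and 0 to 1 with a library left out, and over the mean of stages 0 to 1. For Puf60_pEx5_HOM at ESC it was 2 with equal weights, 2 with 20 reads, 0 with only the groups compared and 0 to 1 with a library left out. At EB8 it was 0 with equal weights, 0 with no PSI filter, 1 with only the groups compared, 1 with 0.5 read added and 0 to 2 with a library left out. At DIV7 it was 1 with 20 reads, 1 with the replicate block and 0 to 2 with a library left out, and over the mean of stages 2 with equal weights and 1 to 4 with a library left out. Between the homozygous lines it was 6 at EB8 with no PSI filter and 5 to 11 with a library left out. At ESC it was 0 with no PSI filter, 0 with only the groups compared, 2 with 0.5 read added and 0 with a library left out. At DIV7 it was 1 with no PSI filter, 1 with only the groups compared and 0 to 3 with a library left out. The cause of these differences was not tested. Counts in Puf60_pEx5_HET and Rbm38KO were 0 under all of them. The rule gave 200 pairs at 40 reads, 544 at PSI 5 to 95 and 189 at PSI 20 to 80. A library left out leaves its group with 1 library, which is then assumed to vary like the other groups.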
